A study of Mus musculus with 12 samples.

Results

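The receptor chains that use or pair with the common gamma chain were followed in 12 RNA-sequencing libraries of mouse CD4+ T cells. The 8 genes Il7r, Il2ra, Il2rb, Il2rg, Il4ra, Il21r, Il15ra and Il9r were picked by symbol out of 43626 genes in the count matrix. All 8 had counts in every library, and all 8 passed the filter on low counts that left 13238 genes for testing. The question was whether the lower Il7r of Eomes reporter-positive cells is matched by the other chains, in each group and within each recipient mouse.

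Naive CD4+ T cells (CD45RBhi CD25-) were sorted from the spleens of donor mice and transferred into adult male Rag2-/- mice, which lack mature T and B lymphocytes. After 3 weeks the CD4+ cells positive (GFP+) and negative (GFP-) for the reporter in each of 6 recipient spleens were sorted and sequenced. All donors carried 1 floxed and 1 GFP reporter allele of Eomes (Eomes flox/GFP). Donors without cre are called Het in the labels, and donors that also carried Lck-cre, a transgene driven in T cells by an Lck promoter, are called KO. A group with 2 unmodified Eomes alleles was not analysed here. With 2 genotypes and 2 sorts there were 4 groups of 3 libraries, and the positive and negative library of a genotype with the same number came from 1 recipient.

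The common gamma chain, encoded by Il2rg, is the shared signalling subunit of the receptors for interleukins (IL) 2, 4, 7, 9, 15 and 21. Each receptor adds its own chain: IL-7R alpha (Il7r) for IL-7, IL-4R alpha (Il4ra) for IL-4, IL-21R (Il21r) for IL-21 and IL-9R (Il9r) for IL-9. IL-2 and IL-15 share the beta chain (Il2rb) and differ in their alpha chains, CD25 (Il2ra) and IL-15R alpha (Il15ra). The receptors signal through the kinases JAK1 and JAK3 to STAT factors. In T cells IL-7 is known for the survival of naive and memory cells, IL-2 for growth and regulatory T cells, IL-15 for memory and cytotoxic cells, and IL-4 for helper differentiation.

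The genes lie at 6 loci on GRCm38, by the exon coordinates in the deposited files. Il7r (chr15:9506161-9529876) and Il2rb (chr15:78480553-78495066) share a chromosome, both on the minus strand, far apart. Il2ra (chr2:11642807-11693193) and Il15ra (chr2:11705290-11734317) are plus-strand neighbours with a gap of 12097 bases. Il4ra (chr7:125552282-125579472) and Il21r (chr7:125603429-125633570) are also plus-strand neighbours, 23957 bases apart. Il2rg is at chrX:101264378-101268255 and Il9r at chr11:32187541-32200279, both on the minus strand. Counts are of reads over all exons of a gene. In the annotation Il2rg overlaps Gm20489, which had 0 counts, Il2ra overlaps Gm37881, with 141 counts over all libraries against 6089 for Il2ra, and Il4ra overlaps the antisense gene Gm44876.

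The start-site windows of the 4 chains called in the comparison of Het GFP+ with Het GFP- cells are shown here, since 3 of these chains were lower and 1 was higher. Each window runs from 250 bases before to 50 bases after the RefSeq start on GRCm38.p6, 5′ to 3′ on the strand of the gene, and capitals mark matches to the motifs described after them. The windows are Il7r at chr15:9529827-9530126 (minus), Il2ra at chr2:11642542-11642841 (plus), Il2rg at chrX:101268206-101268505 (minus) and Il4ra at chr7:125552021-125552320 (plus).
Il7r: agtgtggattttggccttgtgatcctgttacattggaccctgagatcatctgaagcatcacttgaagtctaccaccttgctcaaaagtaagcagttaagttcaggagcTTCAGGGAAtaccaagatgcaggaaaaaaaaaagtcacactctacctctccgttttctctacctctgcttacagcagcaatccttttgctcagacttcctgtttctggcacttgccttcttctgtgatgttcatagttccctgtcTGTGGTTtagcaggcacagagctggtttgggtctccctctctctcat
Il2ra: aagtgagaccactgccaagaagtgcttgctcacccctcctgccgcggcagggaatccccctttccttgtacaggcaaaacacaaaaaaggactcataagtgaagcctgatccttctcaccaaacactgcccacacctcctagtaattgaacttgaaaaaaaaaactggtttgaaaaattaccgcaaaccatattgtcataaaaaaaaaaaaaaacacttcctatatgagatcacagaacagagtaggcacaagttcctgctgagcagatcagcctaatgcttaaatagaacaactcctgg
Il2rg: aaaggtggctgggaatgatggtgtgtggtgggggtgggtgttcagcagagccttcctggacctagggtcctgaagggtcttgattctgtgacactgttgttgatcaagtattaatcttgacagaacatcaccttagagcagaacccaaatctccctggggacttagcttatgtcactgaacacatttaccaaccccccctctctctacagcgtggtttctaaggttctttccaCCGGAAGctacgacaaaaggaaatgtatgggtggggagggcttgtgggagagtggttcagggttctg
Il4ra: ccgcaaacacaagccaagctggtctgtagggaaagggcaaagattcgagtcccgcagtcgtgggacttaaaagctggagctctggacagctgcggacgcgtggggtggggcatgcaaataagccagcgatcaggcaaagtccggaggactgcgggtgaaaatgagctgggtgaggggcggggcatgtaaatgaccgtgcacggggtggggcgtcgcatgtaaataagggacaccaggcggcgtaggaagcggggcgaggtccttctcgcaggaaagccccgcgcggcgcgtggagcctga

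RefSeq windows were matched for 7 of the 8 genes (8 windows, of which Il15ra has 2), and Il2rb had no entry. Both strands were searched for GGTGTGA (T-box), TGTTTAC (FOXO), CCGGAAG (ETS), TTCNNNGAA (STAT) and TGTGGTT (RUNX). These occur in 3.98%, 3.65%, 8.86%, 8.30% and 5.27% of 32851 windows of the same length. The Il7r window held TTCAGGGAA at position -142 from the start and TGTGGTT at position 4. The Il2rg window held CCGGAAG at -17. Among the windows not printed, Il21r held TGTTTAC at -38, Il15ra held CCGGAAG at -104 and Il9r held TGTGGTT at -83. No match overlapped another. The letters of these motifs were not found in the Il2ra and Il4ra windows, and GGTGTGA was in none of the 8.

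Total counts per library were 11492908 to 15026613 in Het GFP-, 4364155 to 8400168 in Het GFP+, 12067137 to 18167236 in KO GFP- and 2116894 to 8608902 in KO GFP+. In number 2 of both GFP+ groups, 4 features (mt-Rnr1 and mt-Rnr2 of the mitochondrial ribosome, Gm26917 and 1 without a symbol) took 58.3% and 54.3% of the counts, against 16.3% to 30.9% in the other 10 libraries. On the first principal component KO GFP+ number 1 lay at -17.8, apart from the other KO GFP+ libraries at 85.4 and 29.6. Eomes itself, counted per gene so that the deleted part is not read apart from the rest, stood at 115, 123 and 89.7 CPM (counts scaled to a common library size with TMM factors) in Het GFP+ and at 46.6, 45.6 and 31.5 CPM in KO GFP+. In the GFP- groups it was at 2.15 to 9.18 CPM (Het) and 1.94 to 4.72 CPM (KO).

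Il7r, the alpha chain of the IL-7 receptor, was lower in GFP+ than in GFP- cells of both genotypes. Its level was 444, 535 and 530 CPM in Het GFP-, 164, 123 and 114 CPM in Het GFP+, 354, 309 and 199 CPM in KO GFP-, and 109, 44.2 and 52.0 CPM in KO GFP+ libraries. The 4 groups stepped down in the order Het negative, KO negative, Het positive, KO positive, with no overlap between neighbours. The log2 fold change of Il7r in Het cells was -1.91 (SE 0.32, edgeR quasi-likelihood FDR 0.00974), a 3.76-fold lower level. In KO cells it fell by 2.05 (SE 0.33, edgeR FDR 0.0384), or 4.13-fold. The KO call was lost when KO GFP- number 1 (FDR 0.16), KO GFP- number 2 (0.121), KO GFP+ number 2 (0.125) or KO GFP+ number 3 (0.235) was left out. With the recipient as a block, the KO call held in each of 3 fits that left out 1 recipient (edgeR FDR 0.000247 to 0.00472).

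Beside Il7r, 3 more chains were called in Het cells, so that 4 of 8 passed edgeR's FDR of 0.05 against 3.45% of all tested genes. Of these, Il7r, Il2ra and Il2rg fell and Il4ra rose. With the recipient as a block 6 of 8 passed, against 22.2% of all genes, Il15ra and Il21r being the additional chains, both higher. In KO cells only Il7r passed without the block (1 of 8, against 0.128% of all genes), and DESeq2 without a block called Il7r and Il2ra (2 of 8, against 2.87% of all genes). With the block 4 of 8 passed, against 17.7% of all genes, and these were Il7r, Il2ra, Il2rg and Il4ra. The 3 positive and 3 negative libraries did not overlap for these same 4 chains in Het cells (27.3% of all genes) and for these 4 and Il2rb in KO cells (20.3% of all genes). In bulk samples fewer cells that express a chain and less of its RNA per cell cannot be told apart. The libraries of a group are from separate recipients, but whether the donor cells were pooled is not given in the sources used here.

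**Figure D1:**
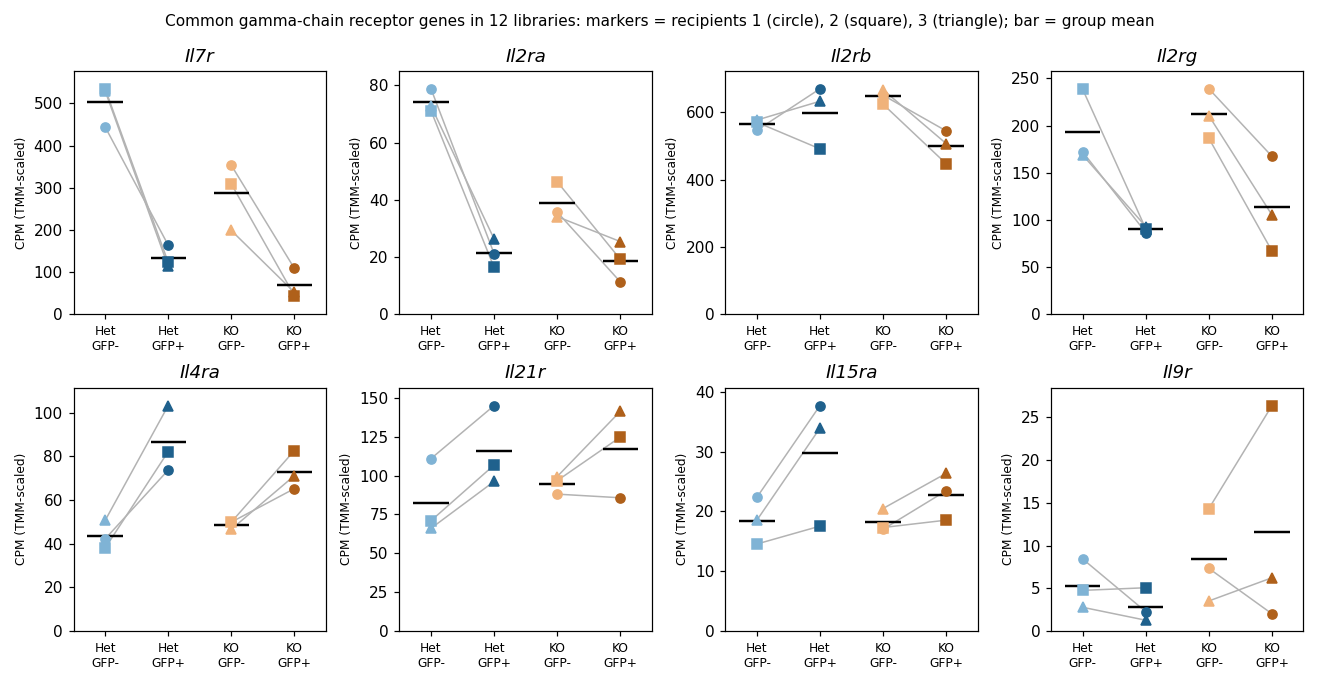
TMM-scaled CPM of the 8 receptor chain genes in the 12 libraries, 1 panel per gene on its own linear axis from 0. Points are libraries (circle, square and triangle for recipients 1, 2 and 3 of a genotype), grey lines join the 2 libraries of a recipient and black bars are group means; Il7r, Il2ra and Il2rg step down from GFP- to GFP+ along all 6 lines and Il4ra steps up along all 6.

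Il2ra encodes CD25, the high-affinity alpha chain of the IL-2 receptor, and the donor cells had been sorted as CD25-. It stood at 78.8, 71.1 and 72.8 CPM in Het GFP- and at 21.2, 16.4 and 26.3 CPM in Het GFP+ libraries. In KO cells it was 35.7, 46.3 and 34.1 CPM in the negative and 11.4, 19.2 and 25.4 CPM in the positive libraries. The positive and negative groups did not overlap in either genotype, and the GFP+ groups of the 2 genotypes did overlap. In Het cells Il2ra fell by 1.78 (SE 0.27, edgeR FDR 0.00647), or 3.43-fold, and this call held without any single library (highest FDR 0.0255). In KO cells the log2 fold change was -1.06 (SE 0.27, edgeR FDR 0.172), and with the block -1.08 (FDR 0.0129). That blocked KO call was lost without recipient 2 (FDR 0.0603), while DESeq2 gave an adjusted p of 0.0237 without a block.

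Il2rg, the common gamma chain itself, was also lower in GFP+ cells. Its level was 172, 238 and 169 CPM in Het GFP-, 86.6, 90.4 and 92.9 CPM in Het GFP+, 239, 186 and 210 CPM in KO GFP-, and 167, 67.0 and 105 CPM in KO GFP+ libraries. The negative groups lay above the positive groups with no overlap, and within each sort the 2 genotypes overlapped. Il2rg fell in Het cells by 1.10 (SE 0.27, edgeR FDR 0.045). This call was lost without any 1 of the 6 Het libraries (FDR 0.0591 to 0.209), but it held with the recipient as a block (FDR 0.00212) and in each blocked fit that left out 1 Het recipient (highest FDR 0.0249). In KO cells the change was -0.89 (SE 0.27, edgeR FDR 0.198), and with the block -0.97 (FDR 0.00746). Without KO recipient 3 the blocked FDR was 0.0749.

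Il2rb, the beta chain shared by the IL-2 and IL-15 receptors, did not follow Il7r. It stood at 547, 571 and 577 CPM in Het GFP-, 670, 492 and 633 CPM in Het GFP+, 651, 625 and 668 CPM in KO GFP-, and 545, 448 and 508 CPM in KO GFP+ libraries. The KO GFP+ group was the lowest and overlapped only Het GFP+, through its number 2 library, and the other 3 groups overlapped in the order of their means. The log2 fold change was 0.08 (SE 0.16, edgeR FDR 0.785) in Het cells and -0.37 (SE 0.16, edgeR FDR 0.274) in KO cells, with blocked FDRs of 0.765 and 0.103. Their difference, the interaction of sort and genotype, was 0.46 (SE 0.23, edgeR FDR 1.0).

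Il4ra, the IL-4 receptor alpha chain, which also pairs with Il13ra1 outside the gamma-chain family, moved the other way. Its level was 42.2, 38.0 and 50.7 CPM in Het GFP-, 73.8, 82.2 and 103 CPM in Het GFP+, 49.9, 49.9 and 46.6 CPM in KO GFP-, and 65.3, 82.7 and 71.2 CPM in KO GFP+ libraries. All 6 GFP+ libraries were above all 6 GFP- ones. Il4ra rose in Het cells by 0.99 (SE 0.17, edgeR FDR 0.0102), or 1.98-fold. The call was lost without Het GFP- number 2 (FDR 0.0608) and when GC content and gene length were corrected by an offset (FDR 0.0532, log2 fold change 0.74). In KO cells the change was 0.57 (SE 0.17, edgeR FDR 0.198), and with the block 0.57 (FDR 0.0184), a call lost without KO recipient 2 or 3 (highest FDR 0.152).

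Il21r and Il15ra, the private chains for IL-21 and IL-15, were higher in most GFP+ libraries by smaller steps. Il21r stood at 111, 71.0 and 66.1 CPM in Het GFP-, 145, 107 and 96.2 CPM in Het GFP+, 88.1, 96.7 and 99.3 CPM in KO GFP-, and 85.7, 125 and 141 CPM in KO GFP+ libraries. All 4 groups overlapped their neighbours. Its log2 fold change was 0.49 (SE 0.24, edgeR FDR 0.239) in Het and 0.30 (SE 0.24, edgeR FDR 0.49) in KO cells. With the block the Het value was 0.50 (FDR 0.0252), lost without any 1 of the 3 Het recipients (FDR 0.0778 to 0.168).

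Il15ra was at 22.4, 14.5 and 18.5 CPM in Het GFP-, 37.7, 17.5 and 33.9 CPM in Het GFP+, 17.0, 17.3 and 20.5 CPM in KO GFP-, and 23.5, 18.5 and 26.4 CPM in KO GFP+ libraries. Number 2 of Het GFP+, at 17.5 CPM, sat inside the range of the negative libraries. The log2 fold change was 0.71 (SE 0.26, edgeR FDR 0.145) in Het and 0.34 (SE 0.27, edgeR FDR 0.481) in KO cells, and with the block 0.66 (FDR 0.0178) and 0.33 (FDR 0.19). The blocked Het call was lost without recipient 1 or 3 (highest FDR 0.108).

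Il9r, the IL-9 receptor chain, was the lowest of the 8 per length, with 13 to 236 counts per library. It stood at 8.43, 4.76 and 2.78 CPM in Het GFP-, 2.26, 5.07 and 1.26 CPM in Het GFP+, 7.33, 14.3 and 3.52 CPM in KO GFP-, and 2.02, 26.4 and 6.24 CPM in KO GFP+ libraries. The highest value, 26.4 CPM in KO GFP+ number 2, came from 37 counts in the shallowest library. The log2 fold changes were -1.06 (SE 0.87, edgeR FDR 0.476) in Het and 0.24 (SE 0.82, edgeR FDR 0.893) in KO cells. A difference of that size was not detectable with this spread.

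**Figure D2:**
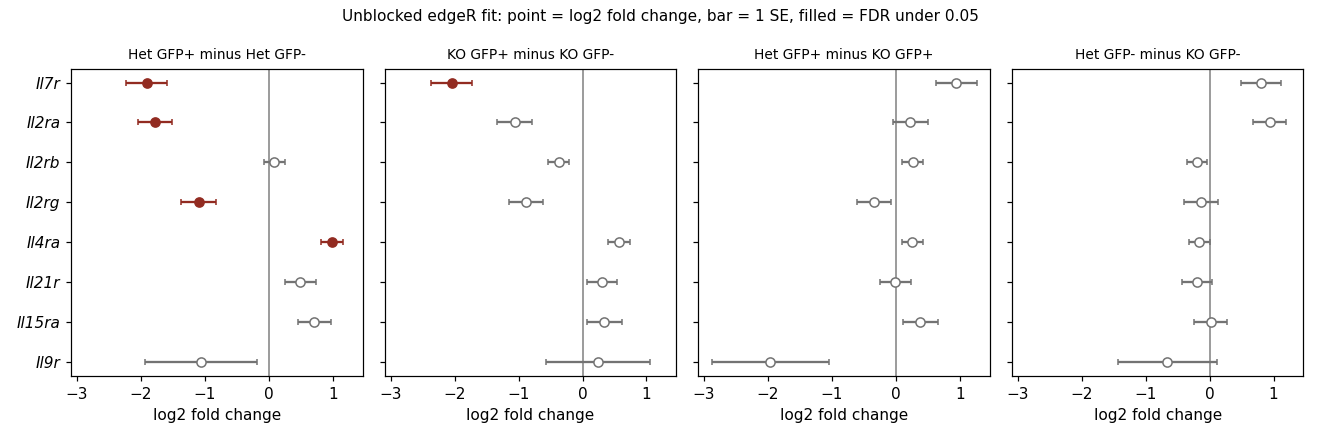
Log2 fold changes of the 8 genes in 4 pairwise comparisons from the edgeR fit without the recipient block; points are estimates, bars 1 SE, and filled red points have an FDR under 0.05. Filled points are Il7r, Il2ra, Il2rg and Il4ra in the Het comparison of sorts and Il7r alone in the KO comparison of sorts.

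Over both genotypes, as the mean of the Het and KO differences, 4 of the 8 chains were called against 18.1% of all tested genes. Il7r fell by 1.98 (SE 0.23, edgeR FDR 0.000783), Il2ra by 1.42 (SE 0.19, FDR 0.00162) and Il2rg by 0.99 (SE 0.19, FDR 0.00867), while Il4ra rose by 0.78 (SE 0.12, FDR 0.0034). These 4 calls held in each of 12 fits that left out 1 library, with FDRs up to 0.0298. With the block 6 of 8 were called, against 41.1% of all genes, including Il15ra (0.50, edgeR FDR 0.00749) and Il21r (0.39, edgeR FDR 0.00907, which became 0.0524 without KO recipient 3). Il2rb (-0.14, SE 0.11, FDR 0.377) and Il9r (-0.41, SE 0.60, FDR 0.642) were not called in either fit. The median log2 fold change of the 8 chains was -0.28, beside -0.02 over all tested genes.

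The sizes of the Het and KO differences were compared by the interaction of sort and genotype. None of the 8 chains was called by edgeR without a block, against 0.00755% of all genes, or with the block, against 0.0755%, or by DESeq2, against 0.0693%. At an unadjusted p under 0.05 edgeR without the block had none of the 8 chains and 264 of all genes. At that level edgeR with the block had 1 chain, Il2ra, at -0.72 (SE 0.32, FDR 1.0), its step being larger in Het. DESeq2 had 1 other, Il2rb, at 0.45 (SE 0.20, unadjusted p = 0.0236). For Il7r the interaction was 0.13 (SE 0.44, FDR 1.0), an estimate that turned negative in 4 fits that left out 1 library. A difference between genotypes in the step of any chain was therefore not shown. It was not shown to be absent either, since the SE of the interaction was 0.23 to 0.44 for the chains other than Il9r.

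Within recipients the 2 sorts could be compared directly, as the log2 ratio of the positive over the negative library. For Il7r it was -1.44, -2.12 and -2.22 in Het recipients 1, 2 and 3 and -1.70, -2.80 and -1.93 in KO recipients 1, 2 and 3, with a mean of -2.03 ± 0.47 (SD, n = 6). Every recipient was at or beyond -1.44, and KO recipient 2 had the largest step. Il7r, Il2ra and Il2rg were lower in the positive library in 6 of 6 recipients, as were 19.9% of all tested genes. Il4ra and Il15ra were higher in 6 of 6, as were 17.7% of all genes.

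The Il2ra ratios were -1.89, -2.11 and -1.46 in Het and -1.64, -1.26 and -0.42 in KO recipients, with a mean of -1.46 ± 0.59 (SD, n = 6). The step was smallest in KO recipient 3. Foxp3, the regulatory T cell factor that goes with CD25, was at 1.81 to 13.3 CPM in the negative and 0 to 10.5 CPM in the positive libraries, highest in KO GFP- number 1 and KO GFP+ number 3. The part of Foxp3-expressing cells in the Il2ra values was not tested. The Il2rg ratios were -0.99, -1.40 and -0.86 in Het and -0.51, -1.47 and -0.999 in KO recipients (mean -1.04 ± 0.35, SD, n = 6). KO recipient 1, with the smallest Il2rg step, is the one whose positive library stood apart on the first principal component.

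Il4ra ratios were 0.80, 1.11 and 1.03 in Het and 0.39, 0.73 and 0.61 in KO recipients, a mean of 0.78 ± 0.27 (SD, n = 6). The 3 Het values were all above the 3 KO values, which the interaction test did not call (0.42, SE 0.24, edgeR FDR 1.0). Il2rb ratios were 0.29, -0.21 and 0.13 in Het and -0.26, -0.48 and -0.39 in KO recipients, so that 4 were below 0 and 2 above. Il21r was above 0 in 5 of 6 recipients (-0.04 to 0.59), Il15ra in 6 of 6 (0.10 to 0.87) and Il9r in 3 of 6 (-1.82 to 0.87).

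The step of Il7r was then set against that of each other chain in the same recipient by an exact sign-flip permutation test (two-sided, 6 recipients, 7 comparisons, unadjusted). The common gamma chain fell less than Il7r in 6 of 6 recipients, by 1.00 ± 0.36 (SD) on the log2 scale (exact p = 0.03125, the smallest that 6 recipients allow). The differences for Il2rb (1.88 ± 0.39), Il4ra (2.81 ± 0.60), Il21r (2.43 ± 0.58) and Il15ra (2.50 ± 0.39) were also positive in 6 of 6 recipients, each with that same smallest exact p. For Il2ra the difference was 0.57 ± 0.83 (SD), positive in 5 of 6 recipients and ranging from -0.45 to 1.54 (exact p = 0.15625), so the steps of Il2ra and Il7r were neither told apart nor shown to be equal. For Il9r it was 1.56 ± 1.6 (SD; 4 of 6 recipients, exact p = 0.125). Il7r was made the reference with its fall in these same libraries already known, so these p-values are descriptive. Il4ra, Il21r and Il15ra rose on average, so for them a positive difference to Il7r follows from their direction.

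**Figure D3:**
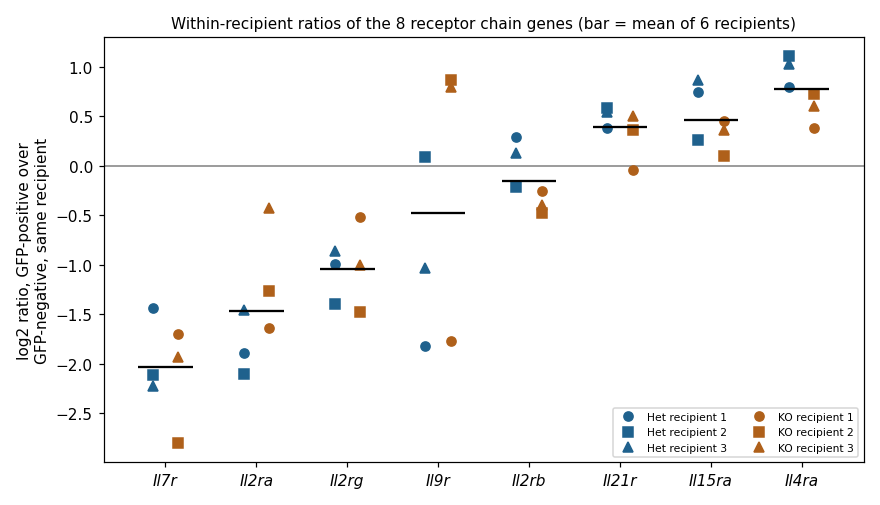
Log2 ratio of GFP+ over GFP- expression in the same recipient (vertical axis) for the 8 chains, ordered by mean; blue is Het, brown is KO, marker shapes are recipient numbers and black bars are means of 6 recipients. All 6 points of Il7r lie at or under -1.44, those of Il2ra and Il2rg lie below 0, and those of Il4ra and Il15ra lie above 0.

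Levels were compared between chains only per length, as RPKM (CPM per kilobase of exon). Il2rb had the highest level in every group, with means of 203, 215, 233 and 180 RPKM in Het negative, Het positive, KO negative and KO positive. Il7r was second in both GFP- groups, at 157 ± 15.9 RPKM in Het and 89.5 ± 24.9 RPKM in KO cells (SD, n = 3), where it overlapped Il2rg at 88.8 RPKM. In Het GFP+ cells Il21r (44.5 RPKM), Il7r (41.6 RPKM) and Il2rg (37.7 RPKM) overlapped as neighbours. In KO GFP+ cells Il7r stood at 21.3 ± 11.0 RPKM (SD, n = 3), after Il2rb, Il2rg (47.4) and Il21r (45.0), and its range overlapped that of Il21r, as that of Il21r overlapped Il2rg. At the low end Il2ra went from 12.996 to 3.73 RPKM in Het cells and from 6.78 to 3.27 RPKM in KO cells. Il4ra went from 8.57 to 17.0 RPKM in Het and from 9.59 to 14.3 RPKM in KO cells, so that it was under Il2ra in Het GFP- cells and above it in the other 3 groups.

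The summed RPKM of the 8 chains was lower in GFP+ cells, at 367 ± 46.7 against 499 ± 22.4 in Het and 318 ± 37.0 against 469 ± 26.6 in KO cells (SD, n = 3). Il7r made up 31.4% ± 2.22 of this sum in Het negative and 11.3% ± 1.59 in Het positive cells (SD, n = 3). In KO cells its share was 18.9% ± 4.47 and 6.52% ± 2.67 (SD, n = 3). The share of Il2rb was 40.7% and 58.5% in Het negative and positive cells, and 49.7% and 56.5% in KO cells. The ratio of Il7r to Il2rb per length was 0.705 to 0.813 in Het negative and 0.156 to 0.217 in Het positive libraries. In KO cells it was 0.258 to 0.471 in the negative and 0.0857 to 0.173 in the positive libraries. The sorts of a genotype did not overlap in this ratio.

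**Figure D4:**
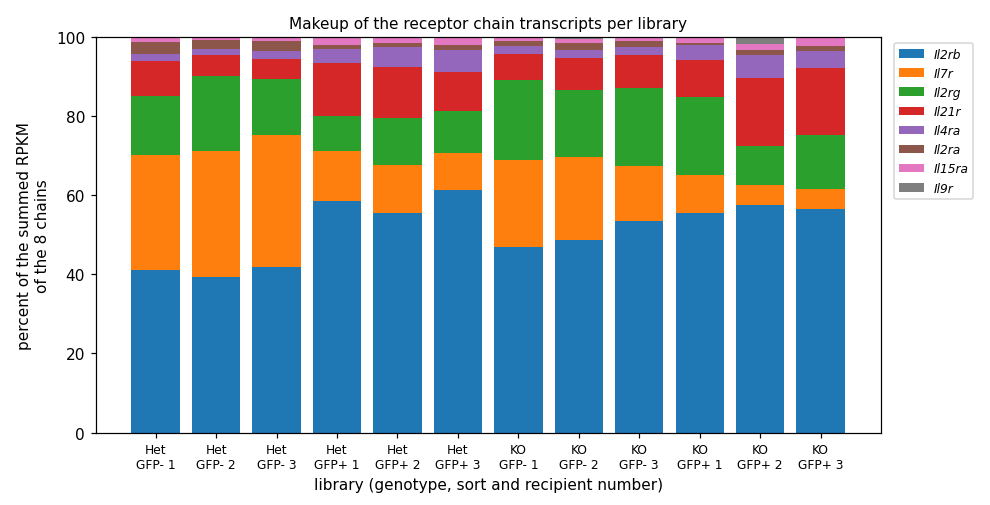
Percent of the summed RPKM of the 8 chains (vertical axis) taken by each chain in the 12 libraries (horizontal axis, genotype, sort and recipient number); stacked colours add to 100. The Il7r band (orange) is narrower and the Il2rb band (blue) taller in the GFP+ than in the GFP- library of every recipient.

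Comparing genotypes within the GFP+ sort asks which genes differ when Eomes is deleted. No chain was called between Het and KO GFP+ cells by edgeR or by DESeq2, against 0.106% of all tested genes in edgeR and 0.7% in DESeq2. At an unadjusted p under 0.05 edgeR had 824 genes and 1 chain, Il7r, and DESeq2 912 genes and 2 chains, Il7r and Il9r. Il7r was higher in Het by 0.94 (SE 0.32, edgeR FDR 0.543), 114 to 164 CPM against 44.2 to 109 CPM. Il7r alone of the 8 chains had non-overlapping groups here, as had 7.48% of all tested genes. Il2ra (0.22), Il2rb (0.26), Il4ra (0.25) and Il15ra (0.38) had positive log2 differences, Il2rg (-0.35) and Il21r (-0.01) negative ones, and Il9r was at -1.96 (SE 0.92, edgeR FDR 0.811).

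Between the GFP- groups, where Eomes was low in both, no chain was called by edgeR, which called 0.0% of all genes, or by DESeq2, which called 0.332%. At an unadjusted p under 0.05 edgeR had 695 genes and DESeq2 793, and the same 2 chains, Il2ra and Il7r, were among both. Il2ra was higher in Het by 0.94 (SE 0.25, edgeR FDR 0.662), at 71.1 to 78.8 CPM against 34.1 to 46.3 CPM. Il7r was higher in Het by 0.81 (SE 0.31, edgeR FDR 0.935). Il7r, Il2ra and Il2rb had groups that did not overlap, as had 11.3% of all tested genes, Il2rb being lower in Het (-0.20, SE 0.16). The interaction given above is also the test of whether the Il7r difference between genotypes differs between the sorts.

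The authors' deposited table for Het GFP+ against Het GFP- cells lists 1406 genes, among them 4 of the 8 chains: Il7r (log2 fold change -1.83), Il2ra (-1.70), Il2rg (-1.07) and Il4ra (0.93). The authors' deposited table for the KO sorts lists 388 genes and 1 chain, Il7r (-1.69, adjusted p 3.3e-05). The authors' deposited table for the 2 GFP+ groups lists 77 genes and none of the 8 chains. The chains listed are those that edgeR called without the block.

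Marker genes of other cells moved with the sorts. The summed CPM of 10 myeloid markers, all with counts in every group, was 213 to 1584 in Het negative, 479 to 3522 in Het positive, 90.5 to 653 in KO negative and 297 to 1249 in KO positive libraries, and was higher in the positive library of 6 of 6 recipients. Cst3 of this list was lower in the positive library, except in Het recipient 3. It was 24.3, 52.1 and 52.6 CPM in Het negative and 19.4, 32.3 and 52.7 CPM in Het positive libraries. In KO cells it was 48.8, 35.6 and 47.4 CPM (negative) and 35.5, 15.7 and 16.7 CPM (positive). The summed CPM of 6 CD4 T cell markers was lower in the positive library of 6 of 6 recipients, at 1825 to 2327, 1243 to 1426, 1857 to 2028 and 1189 to 1563 in the same order, and that of 6 naive and memory markers was likewise lower in 6 of 6 (840 to 906, 529 to 658, 629 to 874 and 379 to 571). Stress, erythroid and mast cell, basophil and eosinophil lists were higher in 6 of 6, and regulatory T cell markers in 4 of 6. Members of this last list went opposite ways in Het recipients. Ikzf2 was at 27.5, 19.1 and 16.9 CPM in Het negative and 203, 97.0 and 96.0 CPM in Het positive libraries. Foxp3 was at 1.81, 1.90 and 2.32 CPM and at 0.27, 0.78 and 0.10 CPM. In the positive library both were lower in KO recipients 1 and 2 and higher in KO recipient 3. Markers of CD8 T, NK and B cells summed to at most 4.56, 11.6 and 2.12 CPM. The part of these cells in the lower Il7r, Il2ra and Il2rg was not tested. Il4ra, which myeloid cells also express, and the myeloid sum were both higher in the positive library of 6 of 6 recipients, and the part of myeloid cells in the higher Il4ra was not tested.

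Other genes of the pathway were followed as lists. Of the other partner chains, Il13ra1, which pairs with Il4ra in the type II IL-4 receptor, rose over both genotypes by 2.12 (edgeR FDR 0.0291, and 0.0757 at most without 1 library). Its level was low, 0.20 to 3.68 CPM in the negative and 2.02 to 12.0 CPM in the positive libraries. The highest value was in Het GFP+ number 3, where the summed CPM of the myeloid markers was also highest (3522). The part of myeloid cells in the higher Il13ra1 was not tested. Crlf2, which pairs with Il7r in the TSLP receptor, was called over both genotypes only with the block (0.39, FDR 0.0193, lost in 4 of 6 fits without 1 recipient). Il13ra2 had no counts.

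Of 8 ligand genes only Il2, Il7 and Il21 had enough counts to be tested. Il2, the T cell growth factor that binds Il2ra, fell over both genotypes by 2.38 (edgeR FDR 0.0294), on 4 counts in all Het positive and 6 in all KO positive libraries. Il7 rose by 1.37 (edgeR FDR 0.0201) on 35 to 40 counts per positive group. Both calls were lost in some fits that left out 1 library (Il2 in 5 of 12, Il7 in 2 of 12). Il21 was called only with the block, where it rose by 0.89 (edgeR FDR 0.0323, lost in 4 of 6 fits without 1 recipient).

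Of 9 JAK and STAT genes, Jak3, the kinase that binds the common gamma chain, rose over both genotypes by 0.85 (edgeR FDR 0.037, lost in 8 of 12 fits without 1 library). Its level was 251, 144 and 131 CPM in Het negative, 456, 314 and 193 CPM in Het positive, 178, 224 and 188 CPM in KO negative, and 212, 420 and 420 CPM in KO positive libraries. It was higher in the positive library of every recipient, the reverse of Il2rg. With the block Jak3, Tyk2 and Stat5a were called higher over both genotypes, as were 20.3% of all genes.

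Of 11 genes known as targets of these receptors, Socs2, a feedback inhibitor induced through STAT5, fell in Het cells by 1.97 (edgeR FDR 0.00798) and over both genotypes by 1.84 (FDR 0.00101). It stood at 26.9, 39.1 and 33.5 CPM in Het negative and 11.6, 8.18 and 5.64 CPM in Het positive libraries. In KO cells it was 25.6, 31.7 and 18.6 CPM in the negative and 10.4, 6.42 and 5.77 CPM in the positive libraries. The sorts did not overlap in either genotype, and both Socs2 calls held without any 1 library. Socs2 was 1 of 11 called, against 3.45% of all genes in Het sorts and 18.1% over both genotypes. With the block Socs2 and Pim2 were called lower over both genotypes, against 41.1% of all genes. In KO sorts the block called Socs2 and Bcl2 (-0.88, FDR 0.0106) lower. In Het sorts it called Socs3 higher (0.78, FDR 0.0249), and Cish (-0.11), Pim1 (-0.12) and Myc (0.14) were not called. Between the GFP+ groups 2 of the 11 were called, against 0.106% of all genes. These were Socs3 and Bcl2, a feedback inhibitor and a survival gene, higher in Het by 2.05 (edgeR FDR 0.0136) and 1.66 (FDR 0.0324). Those calls were lost in 3 and 6 of 6 fits without 1 library. Bcl2 was at 136, 110 and 134 CPM in Het positive and 40.4, 41.3 and 39.4 CPM in KO positive libraries.

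Of 12 genes reported to regulate the chains, Eomes and Gfi1 rose and Tcf7 and Ets1 fell over both genotypes without the block (4 of 12, against 18.1% of all genes). Eomes is the gene whose reporter defined the sort. Gfi1, a repressor that acts on Il7r in T cells, rose by 0.64 (edgeR FDR 0.0197, lost in 3 of 12 fits without 1 library). Tcf7, a factor of naive and memory cells, fell by 0.88 (FDR 0.0258, lost in 3 of 12), and Ets1 by 0.42 (FDR 0.041, lost in 11 of 12). With the block 5 rose (also Runx1, Runx3 and Foxo3) and 5 fell (also Gabpa, Foxo1 and Klf2), against 41.1% of all genes called, and of these Foxo1, an activator of Il7r, changed by -0.33 (FDR 0.0374, lost in 5 of 6 fits without 1 recipient). Of 22 receptor chains for other cytokines 5 rose and 5 fell over both genotypes without the block, against 18.1% of all genes called, and 9 rose and 7 fell with the block, against 41.1%. Among them Il10ra rose by 1.64 (edgeR FDR 0.001) and Il1r1 and Il18r1 fell by 3.36 and 1.02 (FDR 0.001 and 0.00113), while Csf2ra and Csf2rb rose by 2.63 and 2.31 (FDR 0.0118 and 0.0413, the latter lost in 8 of 12 fits without 1 library). Myeloid cells also express the last 2 genes, and their part was not tested.

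The genes whose log2 CPM was most like that of Il7r over the 12 libraries, among 9820 genes that averaged 5 CPM or more, were the cytochrome P450 gene Cyp2s1 (Pearson r 0.974), the nucleotide hydrolase Entpd5 (0.967), the oxysterol receptor Gpr183 (0.964), the kinase Prkx (0.961) and the gene with identifier ENSMUSG00000089672.4 (0.957). The 12 points share 4 groups and 6 recipients, so these values describe the libraries. Of the other chains Il2ra ranked 439th (0.807) and Il2rg 625th (0.776), while Il4ra was at -0.799 and Il21r at -0.670. The genes most like Il2rb were Atmin (0.877), Tcrg-C2 (0.846), Ppm1f (0.839), Rpain (0.839) and Wbp4 (0.837), and Il7r was at 0.515 to it.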

How the data were processed

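RNA of sorted splenic CD4+ T cells was sequenced after ribosomal RNA depletion with a stranded total RNA kit, per the labels' protocols. The submitters' processing notes name bcl2fastq 1.8.4, TopHat2 2.0.13, featureCounts 1.5.0-p1 and DESeq2 1.6.1, and the build mm10. The strand setting of the counting is not given in the sources used here, so reads of antisense partners may be shared. The authors deposited raw counts per gene, as a matrix and as files per library, which held the same counts (0 cells differed) and give exon coordinates and the exon length. The authors' deposited tables of DESeq2 results hold, per the file headers, a mean of normalized counts (a signal), log2 fold changes, a test statistic (a score) and p-values, and were used for description only.

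Groups follow the sample titles. Counts were tested with the quasi-likelihood test of edgeR 4.0.16 in R 4.3.3, with TMM scaling, filterByExpr (minimum count 10, total 15), 1 mean per group over 12 libraries, two-sided, with Benjamini-Hochberg adjustment over 13238 genes and calls at FDR 0.05. The SE is the log2 fold change over the square root of F. Within-recipient ratios are of log2 CPM with a prior count of 2, and RPKM is TMM-scaled CPM per kilobase of exon. PCR duplicates carry no molecular identifiers, so precision from counts covers counting error only, and it is lowest for KO GFP+ number 2 with 2116894 counts. Replicates differed by more than counting error, with a chi-square of 37.2 to 324 for each degree of freedom. The fitting code was tested on simulated data.

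Libraries of 1 genotype with the same number share a recipient, per the design text, and their deviations correlated (r = 0.547, 0.241 and 0.617 in Het, 0.507, 0.506 and 0.263 in KO). An alternative fit had recipients as blocks, and is printed where it changes a call. Other alternatives were DESeq2 1.42.0 and its size factors, no filter, only the 2 groups compared, library sizes without the 4 dominant features, a GC and length offset (values for 99.3% of tested genes), leaving out each library or both GFP+ libraries numbered 2, and a prior count of 0.5. Leaving out recipients in the blocked fit was added after seeing the data. The named genes are all 8 chains, Eomes, the list genes called in either fit that bear on the chains, and the 5 genes most like Il7r and Il2rb. The chains and lists were chosen with earlier results of these data known.

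Promoter windows were read from RefSeq (GRCm38.p6), and overlapping genes from GENCODE M21.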

Additional observations from a re-analysis of the deposited data

How the results depend on the processing

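Of the log2 fold changes of the 8 chains recomputed under the alternatives, 841 kept direction and side of the threshold, 45 gained a call, 15 lost one and 35 turned sign, all 35 without a call. The number of chains called in Het sorts was 4, and 2 to 3 without 1 library (2 without Het GFP- number 2). In KO sorts it was 1, and 2 with DESeq2, 2 with no filter, 0 with only the 2 groups compared, 0 without the GFP+ libraries numbered 2, and 0 to 4 without 1 library (4 without KO GFP+ number 1). With the replicate block it was 4 in KO sorts, 3 with the GC and length offset added, 2 to 5 without 1 recipient and 2 without the recipients numbered 2, both added after seeing the data. With the replicate block it was 6 in Het sorts. No block exists for comparisons between genotypes, which share no recipient. The cause of these changes was not tested, apart from fewer samples.

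Over all genes, calls in Het sorts were 457 (DESeq2 1189, no filter 897, block 2944, block with offset 2808, 88 to 360 without 1 library, 286 without the libraries numbered 2). In KO sorts they were 17 (DESeq2 390, no filter 201, offset 28, the 2 groups only 10, block 2349, block with offset 2406, 5 to 1760 without 1 library, 3 without the libraries numbered 2). Between GFP+ groups they were 14 (DESeq2 95, no filter 72, the 2 groups only 2, 3 to 7 without 1 library, 4 without the libraries numbered 2). Between GFP- groups they were 0 (DESeq2 45, no filter 26, the 2 groups only 7, 0 to 7 without 1 library). For the interaction they were 1 (DESeq2 11, no filter 6, offset 2, block 10, block with offset 27), and over both genotypes 2395 (block 5438, block with offset 5139, 713 to 4652 without 1 library, 724 without the libraries numbered 2). Among interaction calls with the block the share higher in Het was 60.0%, and 77.8% with the offset.

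Signs turned as follows, for estimates that were not called. With the offset Il2rb in Het sorts was -0.013 (with the block -0.027) and Il21r between GFP+ groups 0.00032. Without the libraries numbered 2, Il21r between GFP+ groups was 0.083, Il9r in KO sorts -1.03 and the Il7r interaction -0.023. Il9r in KO sorts was -0.062 with block and offset. In blocked fits without the recipients numbered 2, Il9r in KO sorts was -0.41 and the Il7r interaction -0.020. Without 1 library or recipient, Il2rb in Het sorts ran from -0.053 to 0.20, Il9r in KO sorts from -1.02 to 0.90, the Il7r interaction from -0.11 to 0.65, the Il2rg interaction from -0.47 to 0.17 and the Il21r interaction from -0.0092 to 0.44. Turned signs within these ranges were an Il9r value of -0.42 without KO recipient 2 and -0.39 without KO recipient 3 (blocked), an Il7r interaction of -0.10 without Het recipient 1 (blocked) and -0.080 without KO GFP+ number 2, and an Il2rg interaction of 0.046 without Het recipient 2 and 0.12 without KO recipient 1 (blocked). Likewise Il21r, Il2ra and Il2rg between GFP+ groups ran from -0.23 to 0.16, -0.12 to 0.60 and -0.62 to 0.0086, and Il15ra between GFP- groups from -0.16 to 0.13.

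The within-recipient differences to Il7r stayed positive without each recipient, at 0.92 to 1.11 for Il2rg, 1.79 to 1.97 for Il2rb, 2.67 to 2.96 for Il4ra, 2.28 to 2.58 for Il21r and 2.38 to 2.57 for Il15ra, where the smallest exact p of 5 recipients is 0.0625. Without the recipients numbered 2 they were 0.98, 1.77, 2.53, 2.17 and 2.43, with an exact p of 0.125, the smallest of 4 recipients. Depth limits Il9r most, with 13 counts in each of 2 libraries.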
